A study of Drosophila melanogaster with 46 samples.

Results

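Small RNAs made from the piRNA clusters flamenco and 20A were measured in ovarian somatic cells (OSC, a cultured Drosophila melanogaster line of follicle cell origin) depleted of Armi or of Piwi. The libraries set against each other were total small RNA from cells given siRNA against Armi (Armi-KD), from cells given siRNA against Piwi (Piwi-KD) and from the control knockdown against GFP (GFP-KD). They are 3 of the 46 samples of the series. The labels name no other change to these cells, which were transfected 2 times and taken after 4 days, as were the SetDB1-KD and HP1-KD libraries used here as further knockdowns. Each knockdown has 1 library, so no difference between libraries could be tested, and no p-value is given. All 80 windows of 1 kb in the cluster table were taken, 40 in flamenco and 40 in 20A.

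piRNAs are small RNAs that guide Piwi proteins to transposable element transcripts. In the somatic cells of the ovary they are processed from long single-strand precursors, of which flamenco and 20A on the X chromosome are known sources. Of these, flamenco is known for its remnants of gypsy-type elements and for piRNAs that silence elements of this type. Armi (Armitage) is an RNA helicase needed to turn these precursors into piRNAs and to load Piwi, and Piwi is the Argonaute protein that carries mature piRNAs into the nucleus, where it directs transcriptional silencing. SetDB1 (the Eggless histone methyltransferase) and HP1 act on chromatin.

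The windows run from X:21500001-21540000 for flamenco and from X:21390001-21430000 for 20A, all on the + strand, in the build dm3. Between the windows of the clusters lie 70 kb. Below, the names of the clusters stand for these windows, and signal beyond them was not analysed. Window 1 of each cluster is the one with the lowest coordinate. RefSeq's newer assembly annotates flamenco as a long noncoding RNA, named lncRNA:flam. It is another build, so no coordinates were taken from it. Values are the authors' normalized piRNA counts per window, called signal here. All values of a library are multiples of a common unit, the signal of a single read, to within 0.02 reads. If the values are per 1000000 reads, which the table does not state, that unit gives the number of reads each library was scaled to: 1146906 in Armi-KD, 914399 in Piwi-KD and 723454 in GFP-KD. Summed over the windows, the reads behind both clusters numbered 490519 in Armi-KD, 376180 in Piwi-KD and 3902747 in GFP-KD. A read that matches several windows may be counted more than once. The reads used for scaling are not named. In GFP-KD the cluster reads exceed the implied number of 723454. Under that assumption the signal is therefore not a share of all reads, each counted once. The cluster reads do not depend on the assumed 1000000, nor do the ratios of the deposited signal. The level of armi or piwi mRNA was not analysed here, nor were marker genes of the cell line, so neither the depletion nor the identity of the cells was checked.

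Both knockdowns had far less small RNA from both clusters. The flamenco signal summed to 280569 in Armi-KD and 279016 in Piwi-KD, against 4213707 in GFP-KD. This was 6.66% of GFP-KD in Armi-KD (95% interval 6.63 to 6.68%) and 6.62% in Piwi-KD (6.59 to 6.65%), or 15-fold and 15.1-fold lower. The 20A signal summed to 147120 in Armi-KD and 132380 in Piwi-KD, against 1180896 in GFP-KD. That left 12.5% of GFP-KD in Armi-KD (12.4 to 12.5%) and 11.2% in Piwi-KD (11.1 to 11.3%), or 8.03-fold and 8.92-fold lower. All intervals are exact conditional binomial intervals on the reads and cover counting error only. They treat the reads as independent, so they may be too narrow where windows share reads. SetDB1-KD and HP1-KD lay much nearer to GFP-KD: their flamenco sums were 85.8% and 117% of it and their 20A sums 90.3% and 88.9%. The size of the difference depends on the scaling: on reads with no scaling, flamenco was at 10.6% of GFP-KD in Armi-KD and 8.37% in Piwi-KD, and 20A at 19.8% and 14.2%. Fewer cells with cluster activity and less small RNA per cell cannot be told apart in such libraries.

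Nearly every window was lower. A window was compared where the larger of both libraries held at least 100 reads, and it was counted as lower when its signal differed by 2-fold or more. In Armi-KD, 71 of 72 windows were lower than in GFP-KD (98.6%), all 36 in flamenco and 35 of 36 in 20A. In Piwi-KD, 70 of 72 were lower (97.2%), all 36 in flamenco and 34 of 36 in 20A. None was higher in either knockdown (0%). With the same limit, SetDB1-KD had 0 of 73 windows lower (0%) and 1 higher (1.37%), flamenco window 3, and HP1-KD had 0 of 72 in either direction (0%). In Armi-KD, Piwi-KD and HP1-KD, the same windows fell below the minimum against GFP-KD. They were 1, 2, 3 and 33 of flamenco and 1, 10, 11 and 40 of 20A. In SetDB1-KD, flamenco window 3 met the minimum, with 164 reads. In flamenco window 1 the signal was 1.74 in Armi-KD and 0 in Piwi-KD, against 22.1 in GFP-KD; the 0 allows a signal of up to 3.28 (3 reads). In 20A window 1 it was 0.872 in Armi-KD and 2.19 in Piwi-KD, against 33.2 in GFP-KD, and in 20A window 40 it was 1.74 in Armi-KD and 2.19 in Piwi-KD, against 102 in GFP-KD.

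**Figure D1:**
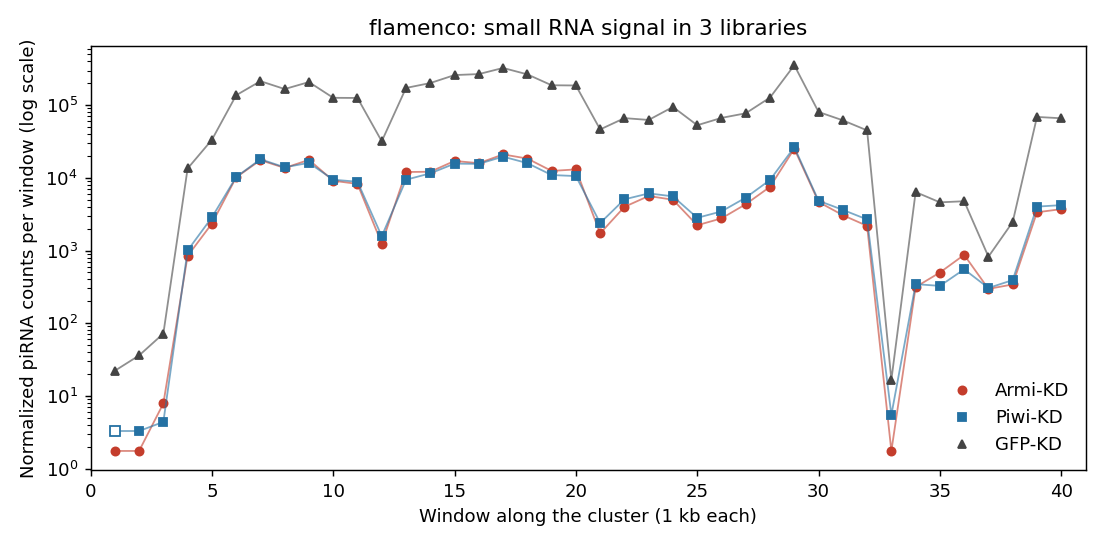
Signal (normalized piRNA counts, log scale) in each 1 kb window of flamenco in Armi-KD, Piwi-KD and GFP-KD, 1 library each; lines join neighbouring windows and the open marker stands for a 0, drawn at 3 reads. The Armi-KD and Piwi-KD profiles run close together and follow the shape of the GFP-KD profile at about 6.6% of its level.

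Along most of flamenco the loss was fairly even. From window 4 to window 32, the signal stood at 3.71 to 8.98% of GFP-KD in Armi-KD and 4.93 to 9.75% in Piwi-KD. Window 29, the strongest in all 3 libraries, had a signal of 25165 in Armi-KD and 26429 in Piwi-KD, against 354649 in GFP-KD. Window 17 had 21003 in Armi-KD and 19569 in Piwi-KD, against 325273 in GFP-KD. These are 7.10 and 7.45% of GFP-KD for window 29 and 6.46 and 6.02% for window 17, close to the percents of the flamenco sum. The next strongest windows in GFP-KD, 16, 18 and 15, were at 5.94, 6.94 and 6.58% of it in Armi-KD and at 5.82, 6.0 and 6.04% in Piwi-KD. Over the 36 windows compared, the median log2 ratio to GFP-KD was -3.94 in Armi-KD and -4.01 in Piwi-KD, with an SD over windows of 0.62 and 0.54. The flamenco SD was smaller in SetDB1-KD, at 0.40, and in HP1-KD, at 0.28. The order of the windows by signal was nearly that of GFP-KD, with a Spearman rho of 0.980 for Armi-KD and 0.978 for Piwi-KD over 37 windows. These correlations are descriptions: the windows share a library and a cluster.

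The weakest and the strongest departures in flamenco lay in different places. Windows 12, 21 and 26 kept the least. Window 21 had a signal of 1721 in Armi-KD and 2387 in Piwi-KD, against 46353 in GFP-KD, or 3.71% and 5.15%. Window 12 had 1245 in Armi-KD and 1570 in Piwi-KD, against 31835 in GFP-KD, or 3.91% and 4.93%. Window 26 had 2767 in Armi-KD and 3454 in Piwi-KD, against 66820 in GFP-KD, or 4.14% and 5.17%. On the deposited scale, Armi-KD was the lower of the 2 knockdowns in each of these windows. On unscaled reads window 26 turned, with 3173 reads in Armi-KD and 3158 in Piwi-KD. Window 12 was then nearly equal, with 1428 and 1436 reads, and window 21 stayed lower, with 1974 and 2183. The most was kept in windows 36 to 38, at X:21535001-21538000, which are among the weakest. Window 37 had a signal of 296 in Armi-KD and 305 in Piwi-KD, against 822 in GFP-KD, or 36% (31.5 to 41.3%) and 37.1% (32.1 to 42.8%). Window 36 had 871 in Armi-KD and 551 in Piwi-KD, against 4766 in GFP-KD, or 18.3% and 11.6%. Window 38 had 341 in Armi-KD and 392 in Piwi-KD, against 2469 in GFP-KD, or 13.8% and 15.9%. With window 35 these make up 0.715% of the flamenco signal in Armi-KD and 0.564% in Piwi-KD, against 0.300% in GFP-KD, so they hardly touch the sum. Window 40, the last one analysed, was in step with the rest, with 3708 in Armi-KD and 4209 in Piwi-KD, against 66042 in GFP-KD.

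**Figure D2:**
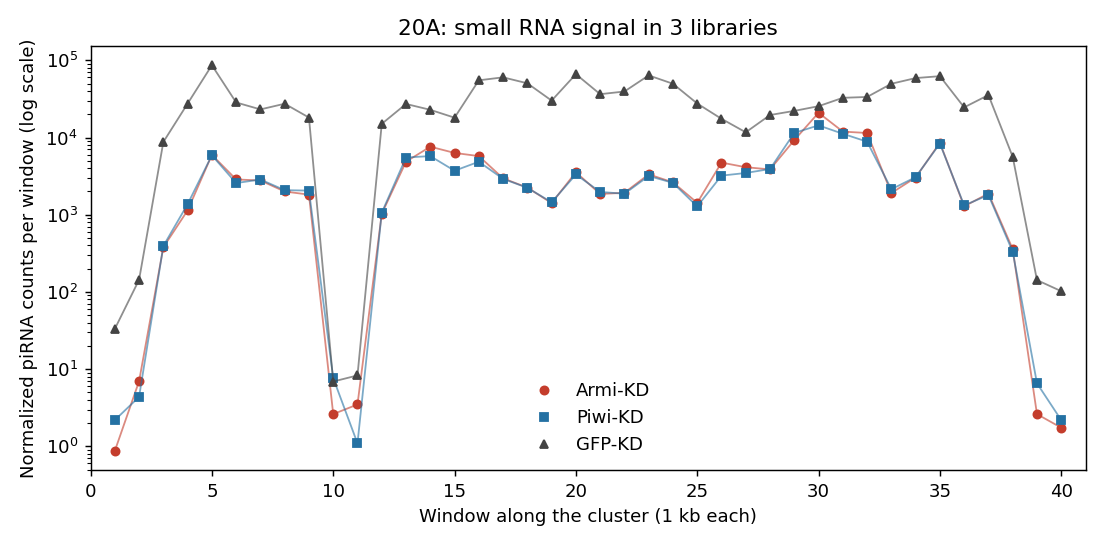
Signal (normalized piRNA counts, log scale) in each 1 kb window of 20A in Armi-KD, Piwi-KD and GFP-KD, 1 library each; lines join neighbouring windows. Both knockdowns peak at window 30, where the signal is at 82.1% of GFP-KD in Armi-KD and 56.4% in Piwi-KD, while GFP-KD peaks at window 5.

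In 20A the loss was uneven. Much of the cluster was as low as flamenco: in windows 17 to 25 the signal was at 4.46 to 5.37% of GFP-KD in Armi-KD and 4.44 to 5.42% in Piwi-KD. A pair of stretches kept several times more. In windows 13 to 15 (X:21402001-21405000) it was at 17.9 to 34.9% in Armi-KD and 20.2 to 25.2% in Piwi-KD. In windows 26 to 32 (X:21415001-21422000) it was at 19.7 to 82.1% in Armi-KD and 18.4 to 56.4% in Piwi-KD. The edges of the second stretch were sharp: window 25, before it, was at 5.17% in Armi-KD and 4.65% in Piwi-KD, and windows 33 and 34, after it, were at 3.84 and 5.15% in Armi-KD and at 4.30 and 5.21% in Piwi-KD. Those of the first were more gradual. Window 12, before it, was at 6.85% in Armi-KD and 7.06% in Piwi-KD, and window 16, after it, was at 10.4% and 8.82%. The edges of the stretches were chosen after their values were seen, and both percents share the GFP-KD library.

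Among the windows compared, window 30 (X:21419001-21420000) kept the most. Its signal was 20906 in Armi-KD and 14361 in Piwi-KD, against 25449 in GFP-KD. That is 82.1% of GFP-KD in Armi-KD (80.6 to 83.7%) and 56.4% in Piwi-KD (55.2 to 57.7%), so it was not past the 2-fold limit in either. Window 29 had 9261 in Armi-KD and 11475 in Piwi-KD, against 22124 in GFP-KD, or 41.9% and 51.9%, and was the other window of Piwi-KD not past the limit. Window 31 had 11928 in Armi-KD and 11185 in Piwi-KD, against 32677 in GFP-KD, or 36.5% and 34.2%. Window 30 was not low in the other knockdowns, where it was at 139% of GFP-KD in SetDB1-KD and 134% in HP1-KD.

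The strongest 20A windows of GFP-KD, except window 35, kept about as little as flamenco. Window 5, the first by signal in GFP-KD, had 5960 in Armi-KD and 5883 in Piwi-KD, against 86355 in GFP-KD, or 6.90% and 6.81%. Window 20 had 3555 in Armi-KD and 3325 in Piwi-KD, against 66147 in GFP-KD, and window 23 had 3333 in Armi-KD and 3178 in Piwi-KD, against 63776 in GFP-KD. Both stood near 5% of GFP-KD: 5.37 and 5.03% for window 20, 5.23 and 4.98% for window 23. Window 17 was at 4.92% in Armi-KD and 4.84% in Piwi-KD, and window 18 at 4.46% and 4.44%. Window 35 kept more than those around it, with 8546 in Armi-KD and 8360 in Piwi-KD, against 62289 in GFP-KD, or 13.7% and 13.4%. Windows 4 and 33 were the lowest of the well covered ones in Armi-KD, at 4.14% and 3.84%, and were at 4.98% and 4.30% in Piwi-KD. The lowest percents of all rest on few reads: window 39 had a signal of 2.62 in Armi-KD and 6.56 in Piwi-KD, against 142 in GFP-KD, or 1.84% (0.373 to 5.52%) and 4.61% (1.65 to 10.4%). Window 2 had 6.98 in Armi-KD and 4.37 in Piwi-KD, against 144 in GFP-KD, or 4.85% (2.04 to 9.92%) and 3.04% (0.814 to 8.03%).

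**Figure D3:**
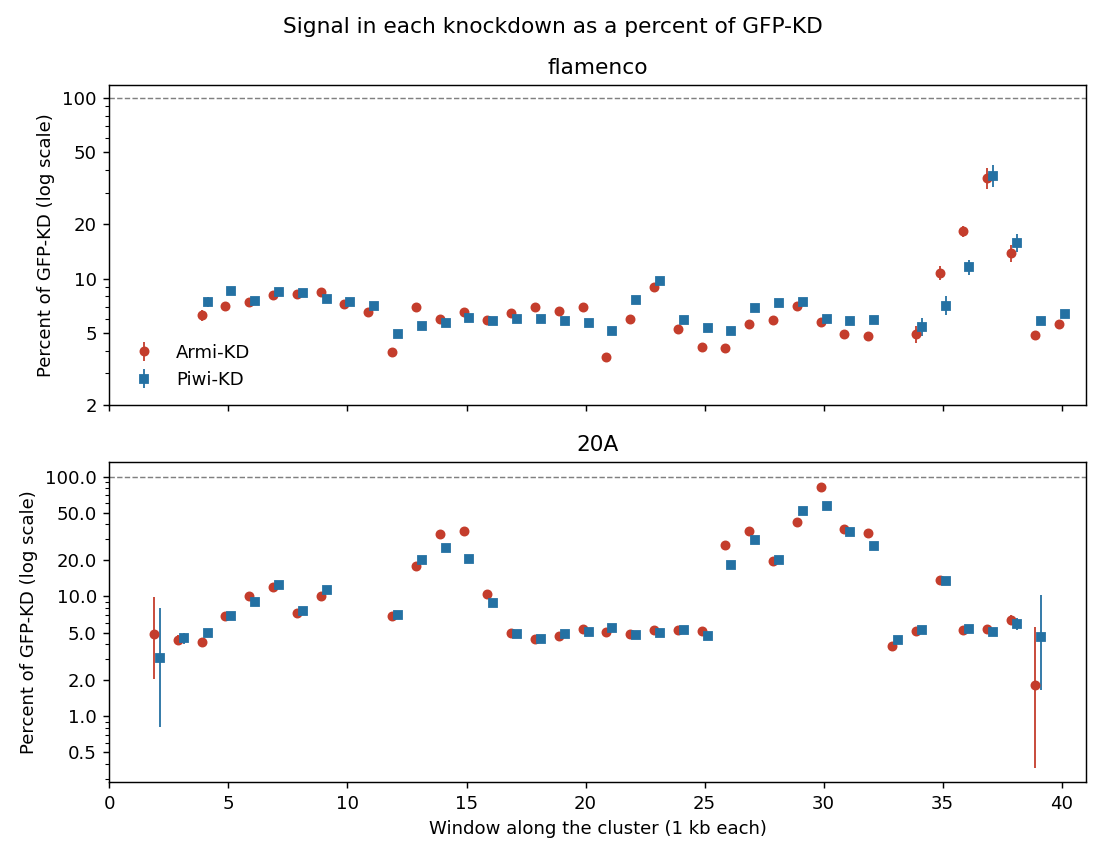
Signal of each window in Armi-KD and Piwi-KD as a percent of GFP-KD (log scale), with 95% counting intervals, for flamenco (top) and 20A (bottom); the dashed line is 100%, and windows with fewer than 100 reads in the larger library are left out. In flamenco windows 4 to 32 stay under 10%, while 20A windows 13 to 15 and 26 to 32 stand above the rest, up to 82.1% in Armi-KD.

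Counted at a 10-fold limit, which was chosen after the data were seen, the clusters part. In Armi-KD, 32 of 36 flamenco windows and 21 of 36 20A windows were at least 10-fold lower than in GFP-KD, together 73.6% of those compared. In Piwi-KD it was 33 of 36 flamenco windows and 23 of 36 20A windows, together 77.8%. The typical window was alike in both clusters: the median was 6.51% of GFP-KD in flamenco and 6.62% in 20A for Armi-KD, and 6.21% and 6.36% for Piwi-KD. The spread was not: the SD of the log2 ratio over 20A windows was 1.29 in Armi-KD and 1.15 in Piwi-KD. In SetDB1-KD and HP1-KD it was 0.35 and 0.34 over the same cluster.

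The 20A profile thus had another shape in both knockdowns. Windows 13 to 15 and 26 to 32 held 57.8% of the 20A signal in Armi-KD and 53.9% in Piwi-KD, against 24.0% in SetDB1-KD, 23.7% in HP1-KD and 19.5% in GFP-KD. Window 30 alone held 14.2% in Armi-KD and 10.8% in Piwi-KD, against 2.2% in GFP-KD, and was the strongest 20A window in both knockdowns. These shares do not depend on the scale of a library. The Spearman rho of the window signals over 36 windows was 0.987 between Armi-KD and Piwi-KD, but 0.331 between Armi-KD and GFP-KD and 0.343 between Piwi-KD and GFP-KD. It was 0.902 between SetDB1-KD and GFP-KD and 0.895 between HP1-KD and GFP-KD. On log2 signal, where the nearly empty windows carry weight, Pearson's r was 0.861 between Armi-KD and GFP-KD and 0.878 between Piwi-KD and GFP-KD.

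**Figure D4:**
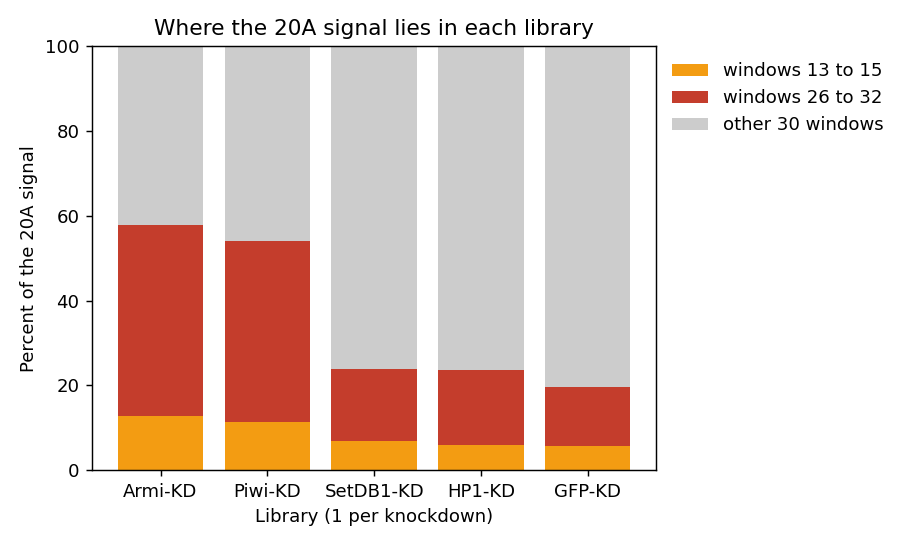
Share of the 20A signal (percent, bars from 0 to 100) that lies in windows 13 to 15, in windows 26 to 32 and in the other 30 windows, in 1 library of each knockdown. The 10 windows of both stretches hold 57.8% in Armi-KD and 53.9% in Piwi-KD, and from 19.5 to 24.0% in the other 3 libraries.

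Within each library, 20A also weighed more against flamenco. It held 34.4% of the signal of both clusters in Armi-KD (34.3 to 34.5%) and 32.2% in Piwi-KD (32 to 32.3%), against 22.8% in SetDB1-KD, 17.5% in HP1-KD and 21.9% in GFP-KD. The ratio of 20A to flamenco was thus 1.87-fold that of GFP-KD in Armi-KD and 1.69-fold in Piwi-KD. Without windows 13 to 15 and 26 to 32 it was 0.981-fold and 0.969-fold, and the 20A sum was at 6.53% of GFP-KD in Armi-KD and 6.42% in Piwi-KD, next to the percents of flamenco. This comparison was added after the data were seen.

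Position followed the same lines. Over blocks of 10 windows in order, flamenco was at 7.94, 6.50, 6.12 and 5.61% of GFP-KD in Armi-KD and at 7.97, 5.91, 6.93 and 6.31% in Piwi-KD. In 20A the blocks were at 7.71, 10.4, 17.3 and 13.3% in Armi-KD and at 7.83, 8.93, 15.1 and 12.2% in Piwi-KD. The percents thus drift downward along flamenco in Armi-KD, whereas in 20A the third block, with windows 26 to 30, is the highest in both. Windows were also ranked by their mean signal in SetDB1-KD and HP1-KD, which enter none of these percents, and summed in 3 groups from weak to strong. In flamenco these stood at 5.43, 5.94 and 7.0% in Armi-KD and at 6.37, 6.78 and 6.58% in Piwi-KD. In 20A they stood at 16.7, 11.7 and 12.1% in Armi-KD and at 13, 12 and 10.5% in Piwi-KD. Stronger windows kept slightly more in flamenco of Armi-KD, and the weakest group kept the most in 20A of both. That 20A group includes windows 15, 26 and 27 of the stretches that kept more, at 34.9, 27.1 and 35.3% in Armi-KD. The other 20A groups also hold windows of these stretches. Whether signal level matters apart from position was not tested.

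Set directly against each other, Armi-KD and Piwi-KD nearly coincided. The flamenco sum in Armi-KD was 1.01-fold that in Piwi-KD (1.00 to 1.01) and the 20A sum 1.11-fold (1.10 to 1.12). Of 70 windows with enough reads, 36 in flamenco and 34 in 20A, none differed by 2-fold in either direction (0%). At 1.5-fold, 3 were higher in Armi-KD (4.29%) and none lower (0%). The median log2 ratio was -0.09 in flamenco and 0.02 in 20A, with an SD over windows of 0.26 and 0.23. With no scaling of the reads the sums would be 1.26-fold and 1.39-fold. No replicate was among the libraries used here to show how far 2 libraries of 1 knockdown would differ. Elsewhere in the series, in antisense small RNAs per transposable element, the share of elements that differed by 1.5-fold or more between paired libraries was 0 of 78 in Piwi precipitates, 1 of 85 in input and 15 of 96 in CG9754 precipitates.

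The small differences between Armi-KD and Piwi-KD ran in blocks along flamenco, and they also went with signal level. In the flamenco groups ranked above from weak to strong, Armi-KD was at 0.853-fold, 0.877-fold and 1.06-fold of Piwi-KD. Windows 13 to 20 all fall in the strongest group, so position and signal level were not separated. On the deposited scale, all 8 windows from 13 to 20 were higher in Armi-KD, by 1.02-fold to 1.28-fold, and all 12 windows from 21 to 32 were lower, at 0.721-fold to 0.962-fold. The second direction rests on the scaling: on reads with no scaling, 9 of these 12 windows were higher in Armi-KD, at 0.904-fold to 1.21-fold, while windows 13 to 20 were at 1.28-fold to 1.60-fold. The ratios of windows 13 to 20 were above those of windows 21 to 32. A change of scale multiplies all ratios by the same factor, so it cannot alter this order and is no check of it. The step lies between windows 20 and 21. Window 20 had 13063 in Armi-KD and 10573 in Piwi-KD, a ratio of 1.24 (1.20 to 1.27), and window 21 had 1721 and 2387, a ratio of 0.721 (0.678 to 0.767). Window 13 had 12027 in Armi-KD and 9419 in Piwi-KD, a ratio of 1.28. Windows 22 and 25 were among the lowest, at 0.788 and 0.791. The counting interval excluded 1 in 29 of the 36 flamenco windows, with Armi-KD lower in 19 and higher in 10; on unscaled reads Armi-KD was lower in 1 and higher in 24. The largest ratios in flamenco were in its weak windows 35 and 36. Window 36 had 871 in Armi-KD and 551 in Piwi-KD, a ratio of 1.58 (1.42 to 1.76), and window 35 had 498 and 326, a ratio of 1.53 (1.33 to 1.76).

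In 20A the differences between the 2 knockdowns lay mostly in the stretches that kept more signal. Their 10 windows had ratios of Armi-KD to Piwi-KD from 0.807 to 1.70 with a median of 1.24, and 7 were above 1. The other 24 windows compared had ratios from 0.830 to 1.18 with a median of 1.01, and 13 were above 1. The stretches were chosen after the values of both knockdowns were seen, so this contrast is a description and no test. Window 15 stood highest, with 6314 in Armi-KD and 3712 in Piwi-KD, a ratio of 1.70 (1.63 to 1.77). Window 26 had 4732 in Armi-KD and 3209 in Piwi-KD, a ratio of 1.47 (1.41 to 1.54), and window 30 had a ratio of 1.46 (1.42 to 1.49). Armi-KD was the higher library in these 3. Window 29 went the other way, at 0.807 (0.786 to 0.829), as did window 13, with 4864 in Armi-KD and 5505 in Piwi-KD, at 0.883 (0.850 to 0.918). Window 4 was at 0.830 (0.768 to 0.898), with 1138 in Armi-KD and 1370 in Piwi-KD. Of the 34 windows, the interval lay above 1 in 11, below 1 in 5 and held 1 in 18. On unscaled reads all 34 windows were higher in Armi-KD, with the interval above 1 in 32, and the median ratio was 1.56 in the 10 windows and 1.27 in the other 24.

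**Figure D5:**
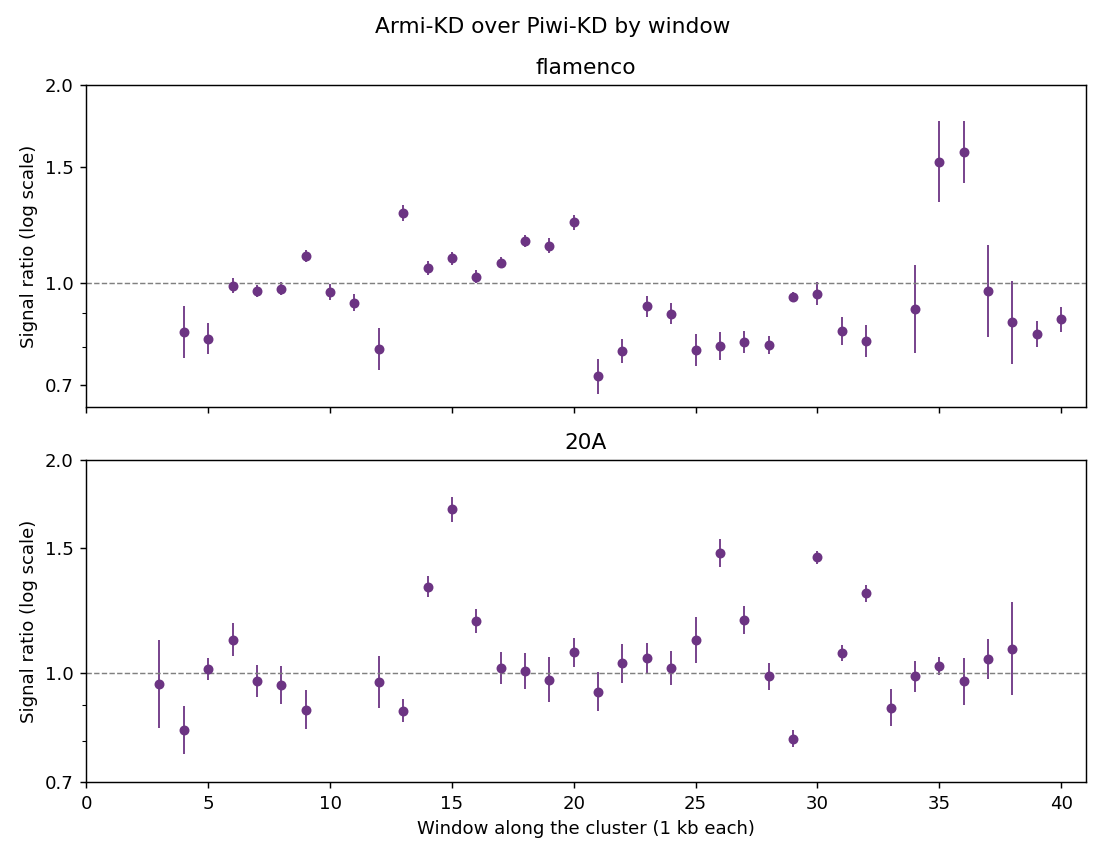
Ratio of the Armi-KD to the Piwi-KD signal in each window (log scale) with 95% counting intervals, for flamenco (top) and 20A (bottom); the dashed line is a ratio of 1, and windows with fewer than 100 reads in the larger library are left out. All ratios of the deposited signal lie between 0.721 and 1.70, with flamenco windows 13 to 20 above 1 and windows 21 to 32 under it; on unscaled reads 9 of the 12 windows from 21 to 32 are above 1.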

How the data were processed

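Values are the authors' deposited signal, named normalized piRNA counts per the file headers, for 1 kb windows in the build dm3. The submitters' processing notes name cutadapt 1.0, Bowtie 0.12.7, SAMtools 0.1.16 and bedtools 2.16.1, with no roles. How reads that match several places were counted, their length range and the set they were scaled to are not given in the sources used here, so windows that hold similar repeats may share reads. A second deposited table, read as RPM from its values, gave the spread between paired libraries of transposable element small RNAs. Reads were recovered from the steps of the signal (400 of 400 values whole, within 0.02 reads). Ratios of the deposited signal carry exact conditional binomial (Clopper-Pearson) 95% intervals, and shares exact binomial ones; they cover counting error only, and a floor of 3 reads stands for a 0, giving a signal of 2.62 in Armi-KD, 3.28 in Piwi-KD and 4.15 in GFP-KD. A window was compared with at least 100 reads in the larger library, and 2-fold was the limit. Python 3.11.15 was used with numpy 2.4.6, pandas 2.3.3, scipy 1.17.1 and matplotlib 3.10.9. The intervals were tested on simulated independent counts, which is what they assume. That test cannot show how shared reads or differences between libraries would affect them. Named windows are, per cluster, the 5 strongest in GFP-KD, the 3 lowest and 3 highest ratios of each comparison, and windows 1 and 40; flamenco windows 3, 20 and 33, 20A windows 10, 11, 12, 16, 25 and 34 and the edges of stretches were named after their values were seen. The windows and comparisons were chosen with earlier results of these data known. Alternatives were other scalings, controls, limits, minimums of reads and a pseudocount of 10. No sequence of the windows was analysed here. Samples of mRNA and of chromatin, which are other assays, were left out.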

Additional observations from a re-analysis of the deposited data

How the results depend on the processing

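The scale of the libraries matters most. With each library rescaled to the same sum over both clusters, which by construction removes the shared loss, flamenco was at 84.0% of GFP-KD in Armi-KD and 86.8% in Piwi-KD, and 20A was above GFP-KD, at 157% and 147%. Then 2 flamenco and 2 20A windows were lower in Armi-KD and 0 and 1 in Piwi-KD, while 2 flamenco and 10 20A windows were higher in each knockdown. The median log2 ratios were -0.28 and -0.26 in Armi-KD and -0.30 and -0.27 in Piwi-KD (flamenco, then 20A), and Armi-KD over Piwi-KD was 0.967 in flamenco and 1.07 in 20A. On unscaled reads flamenco was at 10.6% in Armi-KD and 8.37% in Piwi-KD (median log2 -3.28 and -3.67) and 20A at 19.8% and 14.2%; Armi-KD over Piwi-KD was 1.26 in flamenco and 1.39 in 20A, with medians of 0.24, which turns the direction in flamenco, and 0.35, and 1 20A window was past 2-fold. With the geometric mean of GFP-KD, SetDB1-KD and HP1-KD as the control, 20A was at 13.5% in Armi-KD and 12.2% in Piwi-KD. Without the strongest window of GFP-KD, flamenco was at 6.62% and 6.55%, 20A at 12.9% and 11.6%, and Armi-KD over Piwi-KD in flamenco at 1.01. Without 20A windows 13 to 15 and 26 to 32, added after seeing the data, 20A was at 6.53% and 6.42%, Armi-KD over Piwi-KD in 20A at 1.02, and the 20A ratio over the flamenco ratio at 0.981 in Armi-KD, 0.969 in Piwi-KD and 1.01 between them, which turns the direction for both knockdowns. With the median window signal of each library and cluster in place of its sum (the median of the signal over all 40 windows, not of the window ratios), that last ratio was 1.45 in Armi-KD, 1.21 in Piwi-KD and 1.20 between them. A 10-fold limit, also added, left 21 20A windows lower in Armi-KD. Between Armi-KD and Piwi-KD, a 1.5-fold limit gave 2 flamenco windows and 1 20A window higher, and no minimum of reads gave 1 flamenco window lower, 3 20A windows lower and 1 higher. Under the alternatives run, 107 planned and 23 added values moved by less than the limit set for them. Another 40 planned and 5 added values moved further, and 4 planned and 2 added ones turned direction. Many of the unmoved values could not move, since a count of 0 at 2-fold stays 0 at a stricter limit. No paired analysis was possible because each knockdown has 1 library. Depth limits windows 1 to 3 and 33 of flamenco and 1, 10, 11 and 40 of 20A. These were not counted for Armi-KD or Piwi-KD against GFP-KD.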

Other observations

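The weakest windows rest on few reads. In 20A window 10 the signal was 2.62 in Armi-KD and 7.66 in Piwi-KD, against 6.91 in GFP-KD, and in window 11 it was 3.49 in Armi-KD and 1.09 in Piwi-KD, against 8.29 in GFP-KD. The intervals of the ratio to GFP-KD hold 100% for both knockdowns in both windows. In flamenco window 33 the signal was 1.74 in Armi-KD and 5.47 in Piwi-KD, against 16.6 in GFP-KD; the interval was 1.14 to 47.2% of GFP-KD in Armi-KD and 9.10 to 101% in Piwi-KD.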
